A study of Homo sapiens with 6 samples.

Results

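The expression of 36 genes for lysosomal hydrolases, their cofactors and lysosomal membrane proteins was examined in 67R cells after knockdown of BCAT1. The genes were taken by name from the 60664 genes of the expression table, without a rule on their measured values, and all 36 were found there. The list was chosen with earlier results of these data known. They comprised 5 membrane proteins, 12 cathepsins, 9 glycosidases, 3 sulfatases, 5 lipid enzymes or cofactors and 2 other luminal proteins. On average over the 6 libraries, 34 of them reached 1 TPM or more, and these were tested. CTSO and CTSS, at means of 0.485 and 0.957 TPM, are described as low. TPM is a measure of abundance per unit of gene length, relative to everything measured in the same library, so levels of different genes can be compared on it. Where 3 values of a group are given, they stand in the order of replicates 1, 2 and 3.

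67R cells are NCI-H1975 cells, a human lung adenocarcinoma line with mutated EGFR, that became resistant to the EGFR inhibitor ASK120067 during exposure to rising doses of it. All 6 libraries came from this resistant line, and they differed by the siRNA transfected. The NC group, with 3 libraries, received a negative control siRNA, and the siBCAT1 group, also with 3, received siRNA against BCAT1, the cytosolic aminotransferase of branched-chain amino acids. The comparison asked how the transcriptome of resistant cells differs when BCAT1 is lowered. Transfection of siRNA lowers its target for a limited time and in one line only, the labels do not say whether the drug was present, and parental NCI-H1975 cells were not analysed here. The labels do not say whether the numbered libraries came from separate cultures either, so the p-values measure the spread between these libraries, which may be technical.

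Lysosomes are acidic organelles in which proteins, glycans and lipids are broken down. Most of their soluble enzymes are made in the endoplasmic reticulum, tagged with mannose phosphate in the Golgi and carried onward by mannose phosphate receptors, while the V-ATPase pumps in the protons that the enzymes need. Heavily glycosylated membrane proteins line the organelle and let ions, lipids and amino acids pass. Transcription factors of the MiT/TFE family, TFEB among them, are known to bind a CACGTG-centred element in the promoters of many of these genes, and the folliculin complex is known to take part in keeping such factors in the cytoplasm when amino acids are plentiful.

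BCAT1 was at 42.7, 42.18 and 29.76 TPM in the NC libraries and at 8.78, 7.1 and 8.0 TPM in the siBCAT1 libraries. All siBCAT1 libraries were below all NC libraries, with a log2 fold change of -2.12 (SE 0.15, limma adjusted p = 0.000272). Fold changes are on the scale of log2(TPM + 1), which understates the change of weakly expressed genes, and adjusted p-values are from limma, corrected by the Benjamini-Hochberg method for the 14286 genes that averaged 1 TPM or more. The deposited values are not counts, so the depth of the libraries is unknown, and 23152 to 25043 genes per library were above 0. No single gene can reach a two-sided exact permutation p below 0.1 with 3 libraries against 3. In bulk RNA, fewer cells of a kind and less RNA per cell cannot be told apart.

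The lysosomal genes did not move as one after BCAT1 knockdown. LIPA fell to 25.9% of its NC level, with smaller falls of the cathepsins CTSV, CTSA, CTSZ and CTSD, of the channel MCOLN1, of the cofactor precursor PSAP and of the sulfatase IDS. The cathepsins CTSB, CTSL and CTSC and the glycosidases GUSB and GLA rose. Among the 34 genes tested, 5 were higher (14.7%) and 8 lower (23.5%) in siBCAT1 cells at an adjusted p under 0.05 from limma, where 16.7% of all genes tested were higher and 10.4% lower. The remaining 21 did not pass the threshold. The share of higher genes was near that of all genes, and the share of lower genes was above it. The NC and siBCAT1 libraries did not overlap for 19 of the 34 genes (55.9%), 12 of them lower and 7 higher, where the groups did not overlap for 44.1% of all genes. The median log2 fold change was -0.07, with 15 positive and 19 negative values, against a median of 0.04 over all genes. IDUA, among the negative values and the 12 lower genes without overlap, reached the minimum level through the NC libraries alone.

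**Figure D1:**
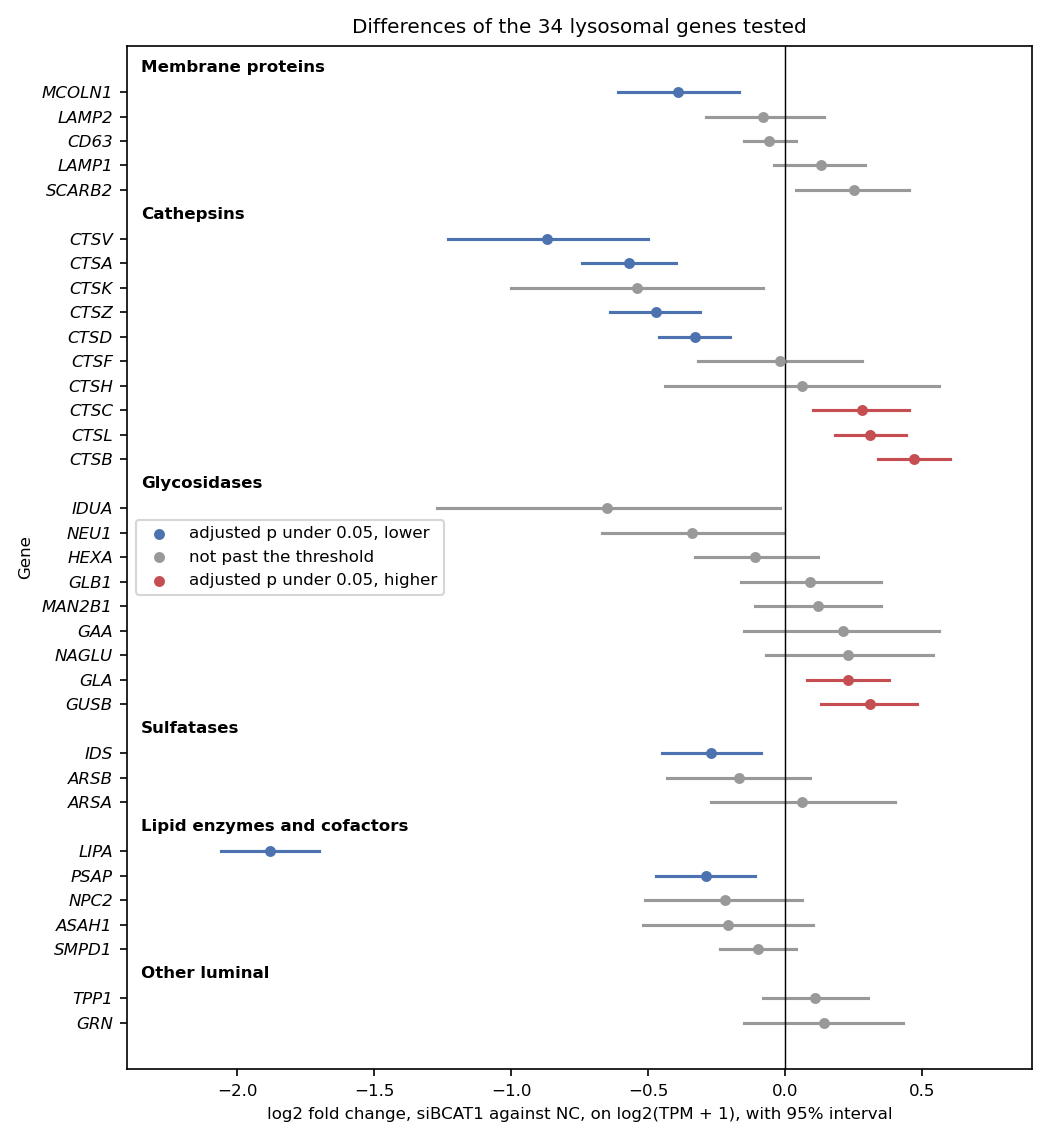
Log2 fold change between siBCAT1 and NC cells (x axis, on log2(TPM + 1)) for the 34 lysosomal genes tested, grouped by role on the y axis. Points are estimates from 3 libraries against 3 and lines are 95% intervals; blue marks the 8 genes lower and red the 5 genes higher at an adjusted p under 0.05 from limma, and LIPA lies at -1.88, apart from the others.

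In NC cells these genes were expressed over a wide range. CTSD, with a mean of 558 ± 25 TPM, and PSAP, with 526 ± 45.2 TPM, were the most abundant, followed by CD63 with 449 ± 7.71 and NPC2 with 392 ± 65.6 TPM (SD, n = 3 each). The levels of PSAP and CTSD differed by less than the spread of the PSAP libraries. IDUA was the lowest gene tested, at 1.74 ± 0.879 TPM (SD, n = 3). The summed level of all 36 genes was 4310, 3952 and 4425 TPM in the NC libraries and 3971, 3902 and 3912 TPM in the siBCAT1 libraries. The groups overlapped through NC replicate 2, and the siBCAT1 mean was 92.9% of the NC mean. The genes together made up between 0.392% and 0.446% of all TPM of a library.

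**Figure D2:**
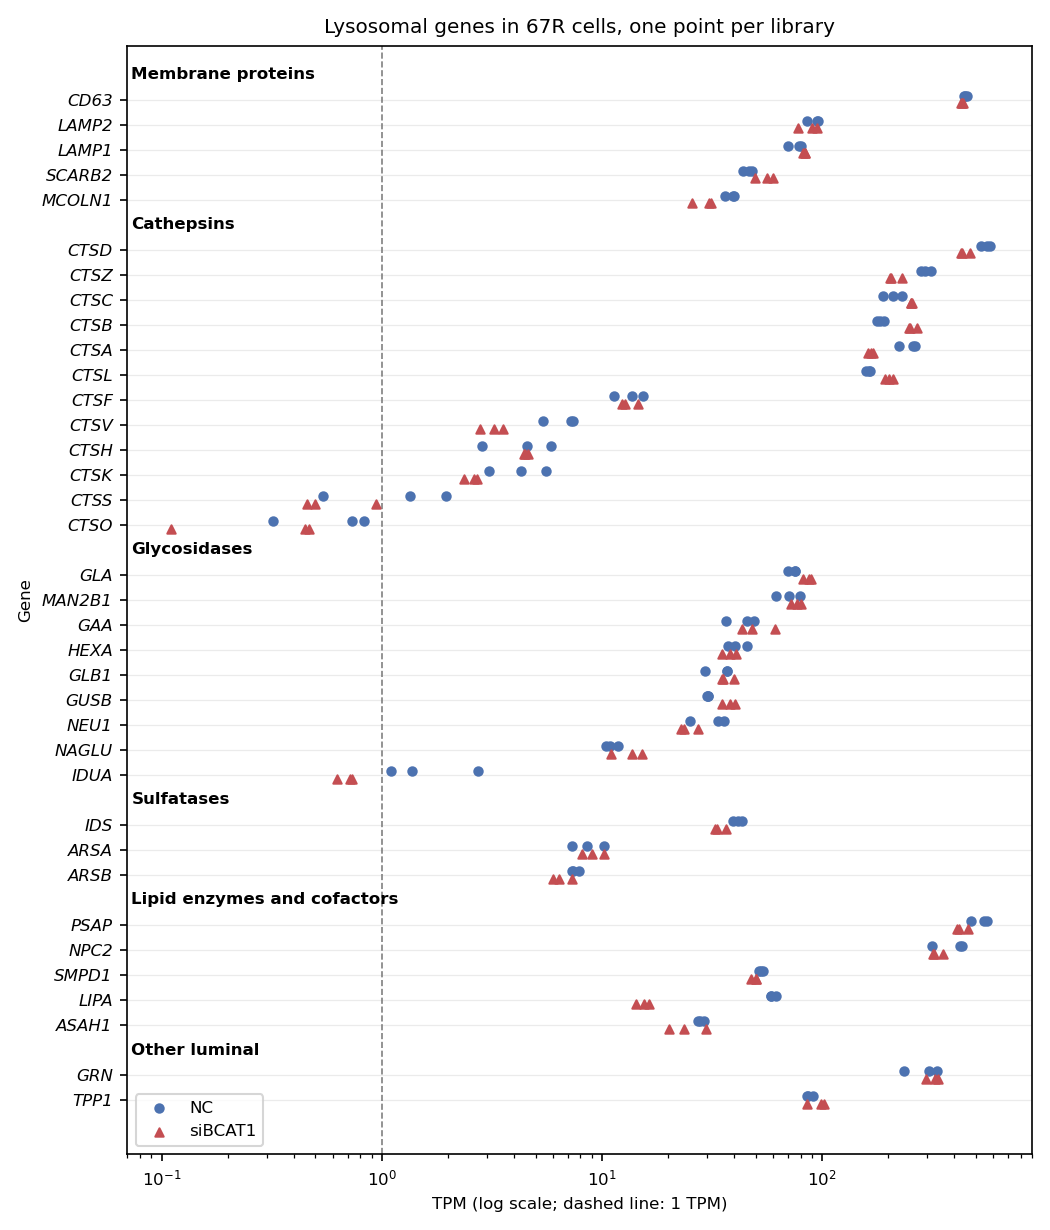
TPM of the 36 lysosomal genes (y axis, grouped by role) in each of the 3 NC libraries (blue circles) and the 3 siBCAT1 libraries (red triangles), on a log scale. The dashed line marks the minimum mean of 1 TPM; the LIPA points of both groups lie far apart, whereas CTSO and CTSS lie around or below the line.

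Among the lipid enzymes and cofactors, all 5 log2 fold changes were negative, with a median of -0.22, and 2 of them passed the threshold, LIPA and PSAP. Over all genes 10.4% were lower and 16.7% higher at that threshold, and 5 genes say little about the group. LIPA encodes lysosomal acid lipase, which hydrolyses cholesteryl esters and triglycerides delivered to the lysosome. It was at 61.56, 59.0 and 58.47 TPM in the NC libraries and at 14.37, 16.46 and 15.58 TPM in the siBCAT1 libraries. The libraries of each group lay close together and far from those of the other group, with means of 59.7 ± 1.65 and 15.5 ± 1.05 TPM (SD, n = 3 each). The log2 fold change was -1.88 (95% interval -2.06 to -1.70, limma adjusted p = 6.28e-05). Ranked by log2 fold change from the lowest, LIPA was number 75 of the 14286 genes tested. The gene spans positions 89213569 to 89414557 of chromosome 10, minus strand, in GRCh38 (GENCODE 29 annotation). Its exons overlap those of IFIT2 and AL353751.1 on the opposite strand. IFIT2, an interferon-induced gene, was at 4.55 to 10.67 TPM and AL353751.1 at 6.19 to 13.57 TPM over the 6 libraries, and for both the groups overlapped. The library kit keeps the strand, and whether the counting used it is not given in the sources used here.

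PSAP encodes prosaposin, the precursor of the saposins that help hydrolases reach sphingolipids. It was at 542.29, 475.06 and 561.04 TPM in the NC libraries and at 459.92, 411.22 and 417.71 TPM in the siBCAT1 libraries. The lowest NC library stood a little above the highest siBCAT1 library, and the log2 fold change was -0.29 (SE 0.08, limma adjusted p = 0.0291). The call of PSAP ended without NC replicate 1, NC replicate 3, siBCAT1 replicate 2 or siBCAT1 replicate 3, with limma adjusted p-values from 0.0858 to 0.0928. NPC2, which carries cholesterol out of the lysosomal lumen, was at 433.71, 316.07 and 425.34 TPM in the NC libraries and at 320.8, 354.13 and 321.29 TPM in the siBCAT1 libraries. NC replicate 2 lay below all siBCAT1 libraries, and the log2 fold change of -0.22 was not past the threshold (limma adjusted p = 0.214). Without that library it was -0.37 (limma adjusted p = 0.00667). With any other library left out, the limma adjusted p was 0.228 to 0.476. SMPD1, the acid sphingomyelinase, was at 51.91 to 53.96 TPM in NC and 47.67 to 50.18 TPM in siBCAT1 libraries, which did not overlap, with a log2 fold change of -0.10 (limma adjusted p = 0.27). For ASAH1, acid ceramidase, the groups overlapped and the log2 fold change was -0.21 (95% interval -0.52 to 0.10), with -0.35 without siBCAT1 replicate 2 and -0.085 without siBCAT1 replicate 3. Set against SMPD1 in the same library, LIPA had a ratio of 1.08 to 1.17 in NC and of 0.301 to 0.328 in siBCAT1 cells. The summed level of the 5 lipid genes was 931 to 1127 TPM in NC and 825 to 866 TPM in siBCAT1 libraries, which did not overlap.

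**Figure D3:**
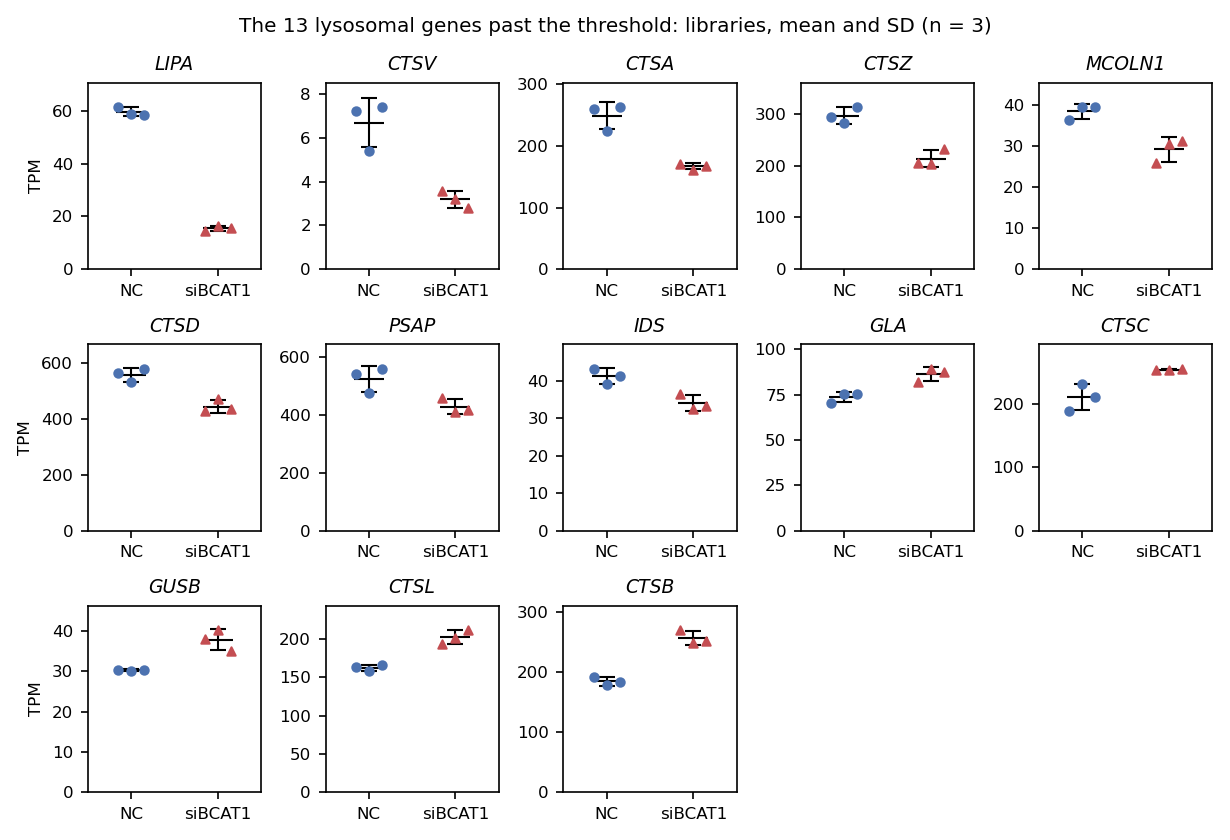
TPM (y axis, from 0) of the 13 lysosomal genes with an adjusted p under 0.05 from limma, in NC (blue circles) and siBCAT1 libraries (red triangles). Points are libraries, in the order of their replicate numbers, and bars show the mean and SD (n = 3 each); the groups do not overlap in any of the panels, and relative to the level of the gene the gap is widest for LIPA.

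The cathepsins moved in both directions. Of the 10 tested, 3 rose and 4 fell, around a median of -0.17 on the log2 scale, where 16.7% of all genes rose and 10.4% fell. The groups did not overlap for 8 of them, against 44.1% of all genes. CTSB, CTSL, CTSC, CTSV, CTSZ, CTSK, CTSF, CTSH, CTSS and CTSO encode cysteine proteases, CTSD an aspartic protease, and CTSA a serine carboxypeptidase that also protects neuraminidase and beta-galactosidase. CTSB was at 191.75, 177.7 and 183.52 TPM in the NC libraries and at 269.4, 248.67 and 250.73 TPM in the siBCAT1 libraries. All siBCAT1 libraries were above all NC libraries, and the log2 fold change was 0.47 (SE 0.06, limma adjusted p = 0.00152). CTSL went from 163.25, 158.36 and 165.51 TPM in the NC libraries to 193.24, 201.07 and 211.35 TPM in the siBCAT1 libraries. It rose by 0.31 on the log2 scale (SE 0.05, limma adjusted p = 0.00644), and it shared 0.561% of its 50-base words with the pseudogene CTSL3P, which was listed at 0 TPM in each library. CTSC, which activates the granule serine proteases of immune cells, was at 189.64, 231.18 and 210.57 TPM in the NC libraries and at 253.57, 253.35 and 255.89 TPM in the siBCAT1 libraries. The NC libraries of CTSC were spread and the siBCAT1 libraries nearly equal, and the log2 fold change was 0.28 (SE 0.07, limma adjusted p = 0.032). This call ended with every library left out in turn other than NC replicate 2, with limma adjusted p-values of 0.0726 without NC replicate 1, 0.0809 without NC replicate 3 and 0.0837 to 0.0853 without siBCAT1 replicate 1, 2 or 3. It also ended, by limma adjusted p, with median-ratio scaling of the libraries (0.112), with quantile normalization (0.0636) and with a correction for GC content and length (0.14), also together with the replicate number as a block (0.0851).

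CTSV, a close relative of CTSL with a narrow tissue range, was at 7.25, 5.4 and 7.43 TPM in the NC libraries and at 3.56, 3.23 and 2.8 TPM in the siBCAT1 libraries. Its siBCAT1 mean was 47.8% of the NC mean (log2 fold change -0.87, SE 0.15, limma adjusted p = 0.00704). The fall of CTSV and the rise of CTSL moved their ratio within a library from 22.3 to 29.3 in NC to 54.3 to 75.5 in siBCAT1 cells. CTSA was at 260.02, 224.7 and 263.58 TPM in the NC libraries and at 171.01, 161.75 and 167.91 TPM in the siBCAT1 libraries. It fell by 0.57 on the log2 scale (SE 0.07, limma adjusted p = 0.0019), and the lowest NC library was above the highest siBCAT1 library by more than the range of the latter. CTSZ went from 294.52, 282.64 and 313.91 TPM in the NC libraries to 206.2, 203.02 and 231.87 TPM in the siBCAT1 libraries, without overlap (log2 fold change -0.47, SE 0.07, limma adjusted p = 0.00328). CTSD, the most abundant of the 36 genes in NC cells, was at 562.64, 530.57 and 579.72 TPM in the NC libraries and at 426.77, 469.46 and 433.95 TPM in the siBCAT1 libraries. Its log2 fold change was -0.33 (SE 0.06, limma adjusted p = 0.00596). CTSD shares 36.5% of its 50-base words with AC068580.4, an annotated gene that overlaps it on the same strand, so the division of reads between them is uncertain. AC068580.4 was at 36.47 to 38.28 TPM in NC and 12.27 to 19.31 TPM in siBCAT1 libraries and was also lower (log2 fold change -1.18, limma adjusted p = 0.00199).

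The ratio of CTSB to CTSD rose from 0.317 to 0.341 in NC libraries to 0.53 to 0.631 in siBCAT1 libraries, and that of CTSB to CTSA from 0.696 to 0.791 to 1.49 to 1.58. The make-up of the abundant cathepsins thus differed between the groups more than their sum. All 12 cathepsins added up to 1629 to 1751 TPM in NC and 1547 to 1575 TPM in siBCAT1 libraries, without overlap, and the siBCAT1 mean was 92.2% of the NC mean. CTSK, best known from osteoclasts, was at 5.55, 3.06 and 4.28 TPM in the NC libraries and at 2.71, 2.63 and 2.37 TPM in the siBCAT1 libraries. The groups did not overlap, and the log2 fold change of -0.54 was not past the threshold (limma adjusted p = 0.0802). Without NC replicate 2 it was -0.72 (limma adjusted p = 0.0266), and without any other library the limma adjusted p was 0.141 to 0.221. CTSF and CTSH overlapped between the groups, with log2 fold changes of -0.02 (95% interval -0.32 to 0.28) and 0.06 (95% interval -0.44 to 0.56). The sign of both depended on the libraries used. CTSO was at 0.11 to 0.83 TPM, and CTSS, a protease of antigen-presenting cells, at 0.46 to 1.95 TPM over the 6 libraries, with overlap and without a test.

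Of the 5 membrane proteins, MCOLN1 fell and none rose, and the median log2 fold change was -0.06. Since 10.4% of all genes fell and 16.7% rose, these counts say little about the group. MCOLN1 encodes mucolipin, a channel that releases calcium from lysosomes. It was at 36.46, 39.64 and 39.67 TPM in the NC libraries and at 25.82, 30.54 and 31.42 TPM in the siBCAT1 libraries. The siBCAT1 mean was 75.8% of the NC mean (log2 fold change -0.39, SE 0.09, limma adjusted p = 0.021), and the limma adjusted p was 0.0658 without NC replicate 3 and 0.053 without siBCAT1 replicate 1. SCARB2, a glycoprotein of the lysosomal membrane that also serves as a sorting receptor, was at 47.89, 46.76 and 44.02 TPM in the NC libraries and at 59.76, 56.19 and 49.47 TPM in the siBCAT1 libraries. The groups did not overlap, and the log2 fold change of 0.25 was not past the threshold (limma adjusted p = 0.0727). Without siBCAT1 replicate 3 it was 0.32 (limma adjusted p = 0.0399), and without any other library the limma adjusted p was 0.106 to 0.199. LAMP1 and LAMP2 are the main glycoproteins of the lysosomal membrane. LAMP1 was at 69.9 to 80.1 TPM in NC and 82.04 to 83.77 TPM in siBCAT1 libraries, a log2 fold change of 0.13 with a 95% interval of -0.04 to 0.29. LAMP2 overlapped between the groups (-0.08, 95% interval -0.29 to 0.14). CD63, a tetraspanin of late endosomes and lysosomes, was at 443.46 to 458.03 TPM in NC and 427.99 to 437.12 TPM in siBCAT1 libraries. Its groups did not overlap, but the siBCAT1 mean was 96.2% of the NC mean, with a log2 fold change of -0.06 (95% interval -0.15 to 0.04).

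Glycosidases remove sugars from glycoproteins, glycolipids and glycosaminoglycans. Of the 9 tested, 2 rose (22.2%) and none fell, where 16.7% of all genes rose and 10.4% fell. The median log2 fold change was 0.12, and 9 genes say little about the class. GUSB, beta-glucuronidase, was at 30.46, 30.12 and 30.43 TPM in the NC libraries and at 38.17, 40.24 and 35.15 TPM in the siBCAT1 libraries. The NC libraries were nearly equal and all siBCAT1 libraries were higher (log2 fold change 0.31, SE 0.07, limma adjusted p = 0.022). The call of GUSB ended without NC replicate 1, NC replicate 3, siBCAT1 replicate 1 or siBCAT1 replicate 2, with limma adjusted p-values from 0.0586 to 0.0785, and with quantile normalization, where it was 0.0545. GLA, the alpha-galactosidase that is deficient in Fabry disease, went from 70.32, 75.23 and 75.19 TPM in the NC libraries to 81.94, 89.41 and 87.64 TPM in the siBCAT1 libraries. Its groups did not overlap, and the rise was 0.23 on the log2 scale (SE 0.06, limma adjusted p = 0.036). The call of GLA also ended without NC replicate 1 or 3 or any siBCAT1 replicate, with limma adjusted p-values from 0.0508 to 0.117, with median-ratio scaling (0.153), with quantile normalization (0.168) and with the GC and length correction (0.237, log2 fold change 0.12), also together with the replicate block (0.109).

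The other 7 glycosidases did not pass the threshold. NEU1, the sialidase that works in a complex with CTSA and GLB1, was at 33.72, 25.22 and 36.05 TPM in the NC libraries and at 23.66, 22.92 and 27.29 TPM in the siBCAT1 libraries. It overlapped through NC replicate 2, with a log2 fold change of -0.34 (limma adjusted p = 0.121), and without that library the value was -0.49 (limma adjusted p = 0.0165). With any other library left out, the limma adjusted p was 0.122 to 0.297. IDUA, which degrades heparan and dermatan sulfate, was at 1.1, 1.37 and 2.74 TPM in the NC libraries and at 0.72, 0.73 and 0.63 TPM in the siBCAT1 libraries. It was low in all libraries, the NC values were spread, and its log2 fold change of -0.65 had a limma adjusted p of 0.114. With means of 1.74 TPM in NC and 0.693 TPM in siBCAT1 cells, IDUA reached the minimum of 1 TPM through the NC libraries alone. Its difference is therefore tied to the filter and says little. GAA, the enzyme of lysosomal glycogen, GLB1, beta-galactosidase, HEXA, a subunit of beta-hexosaminidase, MAN2B1, an alpha-mannosidase, and NAGLU, an enzyme of heparan sulfate, all overlapped between the groups, with log2 fold changes from -0.11 for HEXA to 0.23 for NAGLU. MAN2B1 and NAGLU share 18.4% and 10.7% of their 50-base words with other annotated genes, so their values are uncertain to that extent. The summed level of the 9 glycosidases was 309 to 362 TPM in NC and 360 to 374 TPM in siBCAT1 libraries, with overlap.

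Sulfatases take sulfate groups off glycosaminoglycans and glycolipids. IDS, which acts on dermatan and heparan sulfate, was at 43.35, 39.29 and 41.46 TPM in the NC libraries and at 36.51, 32.6 and 33.25 TPM in the siBCAT1 libraries. It fell by 0.27 on the log2 scale without overlap (SE 0.08, limma adjusted p = 0.0374). The call of IDS ended without NC replicate 1, NC replicate 3, siBCAT1 replicate 2 or siBCAT1 replicate 3, with limma adjusted p-values from 0.0929 to 0.12. IDS shares 20% of its 50-base words with other annotated genes. With AC244197.3 alone, which was at most 1.45 TPM, it shares 15.3% of all its words. ARSA and ARSB overlapped between the groups, with log2 fold changes of 0.06 (95% interval -0.27 to 0.40) and -0.17 (95% interval -0.43 to 0.09). Of the other luminal proteins, the protease TPP1 was at 85.93 to 91.3 TPM in NC and 85.18 to 101.8 TPM in siBCAT1 libraries, and GRN, the precursor of the granulins, at 236.33 to 334.69 TPM in NC and 296.14 to 335.21 TPM in siBCAT1 libraries. Neither passed the threshold, with log2 fold changes of 0.11 and 0.14.

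NC replicates 2 and 3 lay to opposite sides of their group in these genes. NC replicate 2 was the lowest library of its group for 21 of the 34 genes tested, with a median deviation of -0.061 from the group mean on the log2 scale. Its summed level was the lowest in NC. NC replicate 3 was the highest for 18 of the 34, with a median deviation of 0.050. Whether all genes spread in the same way was not tested. Without NC replicate 2, 5 of the genes were higher and 11 lower at an adjusted p under 0.05 from limma, while over all 14304 genes tested then 2317 were higher and 1466 lower. Leaving out any other library gave 2 to 4 lysosomal genes higher and 5 to 7 lower. LIPA, CTSA, CTSB, CTSD, CTSL, CTSV and CTSZ kept their direction and an adjusted p under 0.05 from limma without any one library.

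The CACGTG-centred element was looked for because it is the part of lysosomal promoters known to be bound by TFEB and related factors. RefSeq promoter windows of 300 bases, from 250 bases before to 50 after an annotated start in GRCh38.p14, were matched by symbol for 26 of the 36 genes. The word CACGTG, which reads the same on both strands, occurred in windows of 9 of these 26 genes (34.6%), against 12.6% of the tested genes with a window and 8.77% of all genes with a window. The longer palindrome TCACGTGA, which contains it, occurred in 4 of the 26 genes (15.4%), LAMP1, MCOLN1, CTSA and GAA, against 2.31% of the tested genes and 1.18% of all genes with a window. The words of the 3 genes that fell and held CACGTG, and 1 site each of the 2 others that held TCACGTGA, are shown with 12 bases on each side, 5′ to 3′ on the strand of the gene, with CACGTG in capitals.
MCOLN1, chr19:7522571-7522600, plus strand: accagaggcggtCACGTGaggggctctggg
MCOLN1, chr19:7522598-7522627, plus strand: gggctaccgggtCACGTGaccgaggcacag
CTSA, chr20:45891281-45891310, plus strand: gaggaagactgtCACGTGgcgccggagttc
CTSA, chr20:45891298-45891327, plus strand: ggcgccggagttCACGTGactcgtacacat
CTSD, chr11:1763957-1763986, minus strand: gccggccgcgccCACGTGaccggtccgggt
GAA, chr17:80101493-80101522, plus strand: gggaggccgcgtCACGTGacccaccgcggc
LAMP1, chr13:113297199-113297228, plus strand: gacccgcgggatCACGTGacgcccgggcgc
In MCOLN1 the word stood 41 and 14 bases before the start, in CTSA 42 and 25 bases before it and in CTSD 47 bases before it. Of the 9 genes with CACGTG, these 3 fell, none rose, and the other 6 (LAMP1, CD63, CTSF, GAA, NEU1 and ARSB) did not pass the threshold, with a median log2 fold change of -0.17. Of the 17 tested genes whose windows did not hold it, 4 rose and 4 fell, with a median of 0.09, and of the 8 tested genes without a window 1 rose and 1 fell, with a median of -0.10. Over all 1257 tested genes with CACGTG in a window, 19.6% were higher and 11.5% lower, with a median of 0.05, and over the 8718 without it 18.2% were higher and 11.3% lower, with a median of 0.04. With 9 genes, the counts do not show that the lysosomal genes with the word differ from those without it. The 3 windows of LIPA, the gene with the largest fall, held neither word. A match describes the sequence and is not evidence of binding in these cells.

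TFEB itself was at 6.22, 4.76 and 6.07 TPM in the NC libraries and at 4.32, 4.09 and 4.95 TPM in the siBCAT1 libraries. The groups overlapped and the log2 fold change was -0.29 (95% interval -0.62 to 0.04, limma adjusted p = 0.169). TFE3 was at 61.94 to 65.75 TPM in NC and 59.52 to 63.23 TPM in siBCAT1 libraries (log2 fold change -0.05, limma adjusted p = 0.597). MITF was at 4.76 to 6.68 TPM in NC and 3.44 to 4.94 TPM in siBCAT1 libraries (-0.39, limma adjusted p = 0.128), with overlap. Together with the folliculin complex, 2 of these 6 genes, FLCN and FNIP2, were lower and none was higher at an adjusted p under 0.05 from limma. Over all genes 10.4% were lower and 16.7% higher. FLCN, which encodes folliculin, had a log2 fold change of -0.54 (limma adjusted p = 0.0176).

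A wider list of 63 further lysosomal genes was examined in the same fit, and 61 of them were tested. Of these, 13 were higher and 13 lower (21.3% each) at an adjusted p under 0.05 from limma, beside 16.7% and 10.4% of all genes, with a median log2 fold change of -0.05. The largest fall was that of LAPTM4A, a small membrane protein of late endosomes and lysosomes. It was at 220.22, 200.16 and 214.73 TPM in the NC libraries and at 22.63, 21.8 and 27.64 TPM in the siBCAT1 libraries. The siBCAT1 mean was 11.3% of the NC mean (log2 fold change -3.09, SE 0.10, limma adjusted p = 3.25e-05). ATP6V0D1, a subunit of the membrane sector of the V-ATPase, fell from 133.39 to 157.46 TPM in NC to 66.14 to 75.75 TPM in siBCAT1 libraries (-1.01, limma adjusted p = 0.000418). Of the 16 V-ATPase genes, 3 were higher and 1 lower, and ATP6V1F and ATP6V0A2 rose by 0.59 each on the log2 scale (limma adjusted p = 0.000566 and 0.0239). FUCA1, a fucosidase (-0.80, limma adjusted p = 0.0141), and GNPTAB, a subunit of the enzyme that makes the mannose phosphate tag (-0.66, limma adjusted p = 0.00756), were the next largest falls.

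SIAE, a sialic acid esterase, rose by 0.60 on the log2 scale (limma adjusted p = 0.00869). Of the 20 further hydrolases and cofactors, 7 were higher and 5 lower; of the 6 sorting genes, 2 were higher and 1 lower; of the 10 further membrane proteins, 1 was higher and 3 lower; and of the 3 cystatins tested, which inhibit cathepsins, 1 was lower. These counts stand beside 16.7% higher and 10.4% lower over all genes, and groups this small say little about any of the lists. CST1 and CST6 were under the minimum level.

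**Figure D4:**
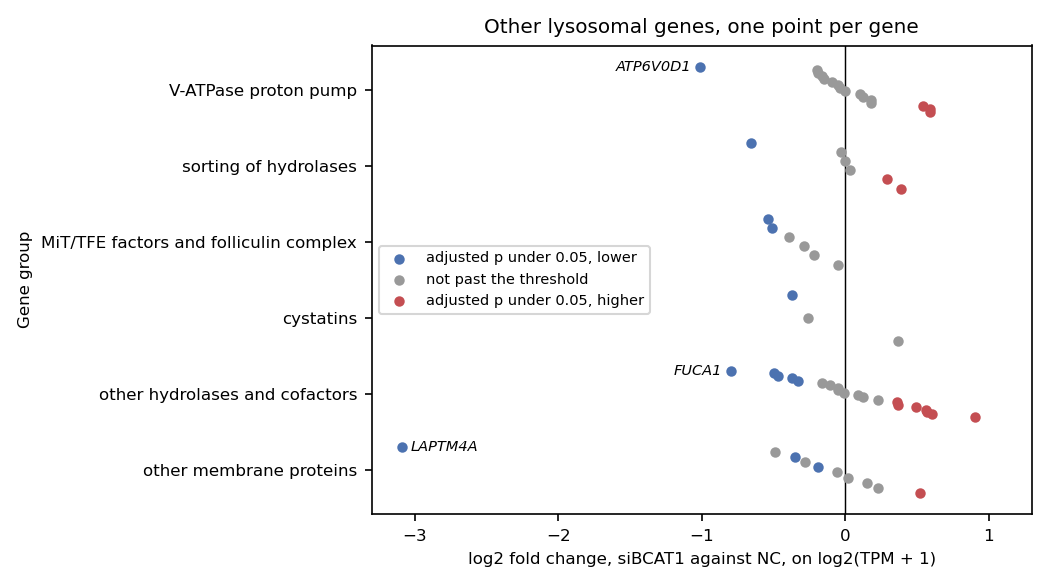
Log2 fold change between siBCAT1 and NC cells (x axis, on log2(TPM + 1)) for the 61 further lysosomal genes tested, by gene group (y axis), one point per gene. Blue marks the 13 lower and red the 13 higher genes at an adjusted p under 0.05 from limma; LAPTM4A at -3.09 lies apart from the others.

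Seed words of the BCAT1 siRNAs were looked up because an siRNA can lower transcripts whose 3′ UTR matches bases 2 to 8 of its guide strand. The study used a pair of BCAT1 siRNAs, and its methods give the plain name siBCAT1 to siBCAT1-2; the labels of the libraries name no sequence. Each word is the target-strand match of the seed derived from the target sequence in the study's methods, and it was searched on the transcript strand in 1 annotated transcript per gene (GENCODE 29). The word of siBCAT1-2, TTGAGCA, occurred in 2 of 33 lysosomal genes, SCARB2 and IDS, against 11.4% of 11662 tested genes, and the word of siBCAT1-1, AGACAAT, in none of the 33 against 8.99%. The 3′ UTR of LIPA held neither word. In the wider list AGACAAT occurred in 6 of 60 genes, LAPTM4A and ATP6V0D1 with the largest falls among them, together with FLCN, which was lower, ATP6V0A2 and TMEM192, which were higher, and MITF, which did not pass the threshold. TTGAGCA occurred in 7 of the 60, of which GNPTAB and PLBD2 were lower, IGF2R and PPT1 were higher, and the other 3 did not pass the threshold. The sites in the genes named for their falls and in IDS are shown 5′ to 3′ on the strand of the gene, with the word in capitals and 8 bases on each side.
LAPTM4A, chr2:20032979-20033001, minus strand: gtttttgaAGACAATctaggtta
ATP6V0D1, chr16:67438034-67438056, minus strand: cccctctgAGACAATaaaactgc
GNPTAB, chr12:101746953-101746975, minus strand: cttgtgtgTTGAGCAgctctgaa
IDS, chrX:149480139-149480161, minus strand: gacctctgTTGAGCAgtcagagt
Whether these matches have a part in the falls was not tested.

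The marker genes of the cell line and of other cells gave the following levels. All 8 epithelial markers were detected, and their summed level was 2573 to 2972 TPM in NC and 1666 to 1953 TPM in siBCAT1 libraries. Of the 8, 6 were lower at an adjusted p under 0.05 from limma, where 10.4% of all genes were lower. EPCAM lay the other way, at 0.91 to 1.55 TPM in NC and 1.96 to 2.61 TPM in siBCAT1 libraries, and did not pass the threshold (log2 fold change 0.56, limma adjusted p = 0.0732). The lung lineage markers NKX2-1, NAPSA, SFTPB and SFTPC summed to at most 0.42 TPM in any library, so these markers of lung adenocarcinoma were absent or nearly so. Macrophage markers matter here because macrophages are rich in lysosomal enzymes. Of the 5, AIF1 and TYROBP were at 0 in all libraries and PTPRC reached 0.33 TPM in 1 of them. CD14 was at 0.77 to 1.51 TPM and CSF1R at 0.74 to 2.48 TPM over the 6 libraries, with overlap and neither past the threshold. The 5 markers summed to 3.16 to 3.28 TPM in NC and 1.66 to 3.34 TPM in siBCAT1 libraries. Of the 5 fibroblast markers, DCN and LUM were at 0 in all libraries, while the other 3 were lower in siBCAT1 cells without overlap between the groups. The groups did not overlap, in either direction, for 44.1% of all genes. COL1A1 (59.6% of the NC mean, limma adjusted p = 0.0197) and PDGFRB (46.8%, limma adjusted p = 0.011) passed the threshold, and COL1A2, at 235.8 to 249.48 TPM in NC and 177.54 to 233.6 TPM in siBCAT1 libraries, did not. The sum of the 4 endothelial markers was at most 2.69 TPM. The part of the lower epithelial and fibroblast markers in the lysosomal differences was not tested.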

How the data were processed

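Gene expression in 67R cells was taken from 3 NC and 3 siBCAT1 RNA-seq libraries, grouped by their labels. The authors deposited 1 TPM value per gene and library; per the labels, reads were cleaned with fastp, mapped to GRCh38 with HISAT2 and assembled with StringTie, from a stranded mRNA kit. Tool versions and the annotation release are not given in the sources used here, and the deposited unit was read from the values (2 decimals, beside a gene length). TPM holds no depth, so precision rests on the spread between 3 libraries. No pair of libraries had equal values in more than 1.42% of the tested genes.

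Values were transformed to log2(TPM + 1), and genes averaging 1 TPM or more were tested with limma 3.58.1 (lmFit, eBayes with trend) in R 4.3.3, with two-sided p-values adjusted by the Benjamini-Hochberg method and called under 0.05. The fit was checked on simulated data beforehand. The 36 genes and the other lists were chosen with earlier results of these data known. The genes named are all 36, BCAT1, the 4 largest called rises and the 4 largest called falls of the wider list, TFEB, TFE3 and MITF, and the markers needed to give a range; some genes of the wider list are not reported here. FLCN, FNIP2, the other genes holding a seed word and the genes overlapping LIPA, CTSD and IDS were named after their values were seen.

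Shared sequence was counted as 50-base words of GENCODE 29 transcripts found in another gene. Promoter windows are from RefSeq (GRCh38.p14). The alternatives were no filter, an average of 5 TPM or more, a smaller pseudocount (0.1), median-ratio and quantile scaling, loess adjustment for GC content and gene length (span 0.5), a replicate block, both together, each library left out, and, for counts, an absolute log2 fold change of at least 1. Python 3.11.15, pandas 2.3.3, numpy 2.4.6 and matplotlib 3.10.9 were used.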

Additional observations from a re-analysis of the deposited data

How the results depend on the processing

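Of the 13 lysosomal genes past the threshold, 7 kept direction and side in every alternative in which they could be fitted, 6 lost the call in at least 1, and 0 changed direction. Of the 21 others, 6 passed in at least 1 alternative. The number of lysosomal genes called higher, 5 as reported, was 3 without a filter (CTSC and GLA lost), 3 with median-ratio scaling, 2 with quantile normalization and 0 with a log2 fold change of at least 1, and 2 to 5 with each library left out. The number called lower, 8 as reported, was 5 without a filter (MCOLN1, IDS and PSAP lost), 1 with the minimum fold, and 5 to 11 with each library left out. For the wider list, 13 and 13 as reported, the minimum fold left 0 higher and 2 lower, no filter left 8 lower, and leaving out each library gave 8 to 12 higher and 6 to 12 lower. Over all genes, 2382 higher and 1483 lower as reported, the minimum fold left 224 and 224, no filter left 960 lower, and leaving out each library gave 1501 to 2317 higher and 859 to 1466 lower. Median-ratio scaling gave 1947 higher and 1822 lower and quantile normalization 2042 and 1865, so the share of higher genes among those called was 51.7% and 52.3%, against 61.6% as reported. Without a filter more genes were adjusted for, and with a library left out fewer libraries were compared; for the other settings the cause was not tested.

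The genes that changed sign did not pass the threshold. LAMP2 was 0.005 (log2 fold change) without siBCAT1 replicate 3 (-0.139 to 0.005 over the left-out libraries). CTSF was 0.002, 0.078, 0.029 and 0.006 without NC replicate 1, NC replicate 3, siBCAT1 replicate 2 and siBCAT1 replicate 3 (-0.128 to 0.078). CTSH was -0.004 with the GC and length correction, with or without the block, and -0.17 without NC replicate 2 (-0.17 to 0.248). GLB1 was -0.015 (-0.015 to 0.15) and GRN -0.005 (-0.005 to 0.246) without NC replicate 2. ARSA was -0.041 without NC replicate 1 and -0.014 without siBCAT1 replicate 1 (-0.041 to 0.175).

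The groups share replicate numbers. Deviations of same-numbered libraries correlated at 0.084, 0.102 and 0.124, and every library correlated best with its own number, but the labels tie the numbers to no culture or day, so the libraries were not treated as paired. With the replicate block, 6 lysosomal genes were higher and 9 lower, adding SCARB2 and NEU1 (limma adjusted p = 0.0327 and 0.0444), and 2773 and 1795 of all genes. Without known depth, the error of genes near 1 TPM, such as IDUA, cannot be separated into counting and other error.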
